A study of Mus musculus with 4 samples.

Results

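The data describe 10 genes of glucose uptake and glycolysis (Slc2a1, Slc2a3, Hk2, Pfkp, Aldoa, Gapdh, Pgk1, Eno1, Pkm and Ldha) in single-cell RNA sequencing of the DLA (Dalton's lymphoma) tumor of mice. The members were taken by gene symbol, which matched 11 of the 32285 genes counted, because Aldoa stands on 2 rows. The main Aldoa row was used, and the second row held 2 to 8 unique molecular identifiers (UMIs) per library. Both groups carried the same transplanted tumor, which was grown from DLA cells injected into the peritoneum of Swiss albino mice. The 2 control libraries (Control 1 and Control 2) came from mice labelled untreated, and the 2 SP11 libraries (Treated 1 and Treated 2) from mice given SP11, an HSP90 inhibitor, by mouth at 30 mg/kg for 17 days. Whether the controls received the vehicle is not settled by the sources, and the sources used here give no age. No label says how many mice stand behind a library, so p-values measure the spread between libraries.

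Glycolysis turns glucose into pyruvate in the cytosol. Glucose enters through carriers of the Slc2a family, is trapped by hexokinase, is committed to the pathway by phosphofructokinase, is split by aldolase, and is then oxidised and converted to pyruvate by the enzymes that Gapdh, Pgk1, Eno1 and Pkm encode. Lactate dehydrogenase, with the subunit that Ldha encodes, reduces pyruvate to lactate and returns NAD+ to the pathway. Dividing and tumor cells are known for high flux through these steps even with oxygen present, and hypoxia-inducible factors and Myc are known to raise transcription of many of the genes.

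A library's kept cells held 9574906 to 13024964 UMIs in all. Tumor cells, gated by at least 5 UMIs of Krt8 and Krt18 together, numbered 845 and 528 in the control libraries and 1256 and 582 in the SP11 libraries. The study calls the cells lymphoma, yet the gated cells carried 11 epithelial check genes outside the gate at 1744 to 2765 CPM (UMIs of a gene per 1000000 UMIs of the summed cells), with 6 B cell and 6 T cell check genes at no more than 43.1 and 32.2 CPM. They are therefore called keratin-positive tumor cells. Macrophages, a gate that also takes monocytes, numbered 22 and 16 in the controls and 75 and 88 after SP11. B cells reached 149 and 137 in the SP11 libraries but 1 and 0 in the controls, T cells reached 77 and neutrophils 38 cells in Treated 2, and these classes had at most 15 and 6 cells in any other library. Markers of other cells moved with treatment in the tumor cell sums. Erythroid check genes made up 267 and 178 CPM of the control tumor cells and 10615 and 4740 CPM of the SP11 tumor cells, macrophage check genes 17.5 and 18.4 against 157 and 60.2 CPM, and neutrophil check genes 6.01 and 9.28 against 24.4 and 18.0 CPM. Cells that passed the keratin gate and an immune gate numbered 6 and 3 in the controls and 107 and 51 after SP11, and without them 0 members were called in the tumor cell comparison. The libraries also shared cell barcodes, 60 to 359 between any pair, and each control library shared some with each SP11 library. The libraries held 595 to 2277 barcodes before filtering. Of the 566 to 1831 barcodes kept per library, 54 to 215 were shared between any pair. Treated 1 shared 185 kept barcodes with Control 1 and 111 with Control 2. Why barcodes were shared, and whether more were shared than by chance, was not tested. The p-values below treat the libraries as independent, and the effect of the shared barcodes on them was not tested either.

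The letters of 3 promoters are shown because their genes behave differently between cell classes below: Ldha and Pgk1 were lower in each immune class, whereas Hk2 in macrophages did not pass the test against tumor cells. The windows are the 250 bases before a transcription start in RefSeq (GRCm38.p6), written from 5′ to 3′ on the gene's strand. Capitals mark ACGTG, the core of the element that hypoxia-inducible factors bind, on either strand, so that the reverse complement CACGT is marked too. Where both overlap they spell the E-box that Myc and Max bind, which is counted as 2 matches. The Ldha start lies inside the annotated gene at chr7:46845554-46845803 on the plus strand, the Pgk1 window at chrX:106186850-106187099 on the plus strand, and the Hk2 window at chr6:82774455-82774704 on the minus strand.
Ldha: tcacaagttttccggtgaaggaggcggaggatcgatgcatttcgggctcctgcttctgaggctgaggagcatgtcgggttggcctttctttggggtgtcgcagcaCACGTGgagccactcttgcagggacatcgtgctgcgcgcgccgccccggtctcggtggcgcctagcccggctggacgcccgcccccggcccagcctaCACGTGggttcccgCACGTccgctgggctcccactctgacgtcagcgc
Pgk1: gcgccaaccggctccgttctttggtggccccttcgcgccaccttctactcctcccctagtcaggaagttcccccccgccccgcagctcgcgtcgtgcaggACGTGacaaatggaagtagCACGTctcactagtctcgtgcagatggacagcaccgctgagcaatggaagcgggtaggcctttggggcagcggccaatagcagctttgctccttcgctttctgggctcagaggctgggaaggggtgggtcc
Hk2: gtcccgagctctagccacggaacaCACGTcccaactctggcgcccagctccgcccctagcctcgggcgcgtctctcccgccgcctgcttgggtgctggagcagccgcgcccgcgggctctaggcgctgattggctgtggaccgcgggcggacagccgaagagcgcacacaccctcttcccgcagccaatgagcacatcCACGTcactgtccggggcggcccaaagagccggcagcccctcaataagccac
The Ldha window held 5 matches, and those of Pgk1 and Hk2 held 2 each. Where a gene had several listed windows, the one with the most matches was printed. Ldha had 2 listed windows, and only 1 of them held a match. Counting also the 50 bases after each start, 7 of the 9 members with a listed promoter had a match in at least 1 of their windows, and 19.6% of all 32851 listed windows had one. Pfkp and Eno1 had none, and no window was listed for Slc2a3. The first share counts genes and the second counts windows, so they are not alike. Several members have more than 1 start, which gives them more letters to match, and a match says nothing of binding.

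Keratin-positive cells held most of the RNA in these libraries, that of the members included. Of the kept UMIs of a member in a library, 95.5% to 99.8% lay in tumor cells, and of the kept UMIs of all genes 99.0% in each control library, 94.5% in Treated 1 and 93.1% in Treated 2. The share of the members was thus close to that of all genes. The 3′ method counts 1 UMI per captured transcript whatever its length, so the same gene is compared across cells here, and the order of different genes is not read as an order of enzyme amounts. In sums over cells, fewer transcripts per cell and fewer expressing cells cannot be told apart.

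**Figure D1:**
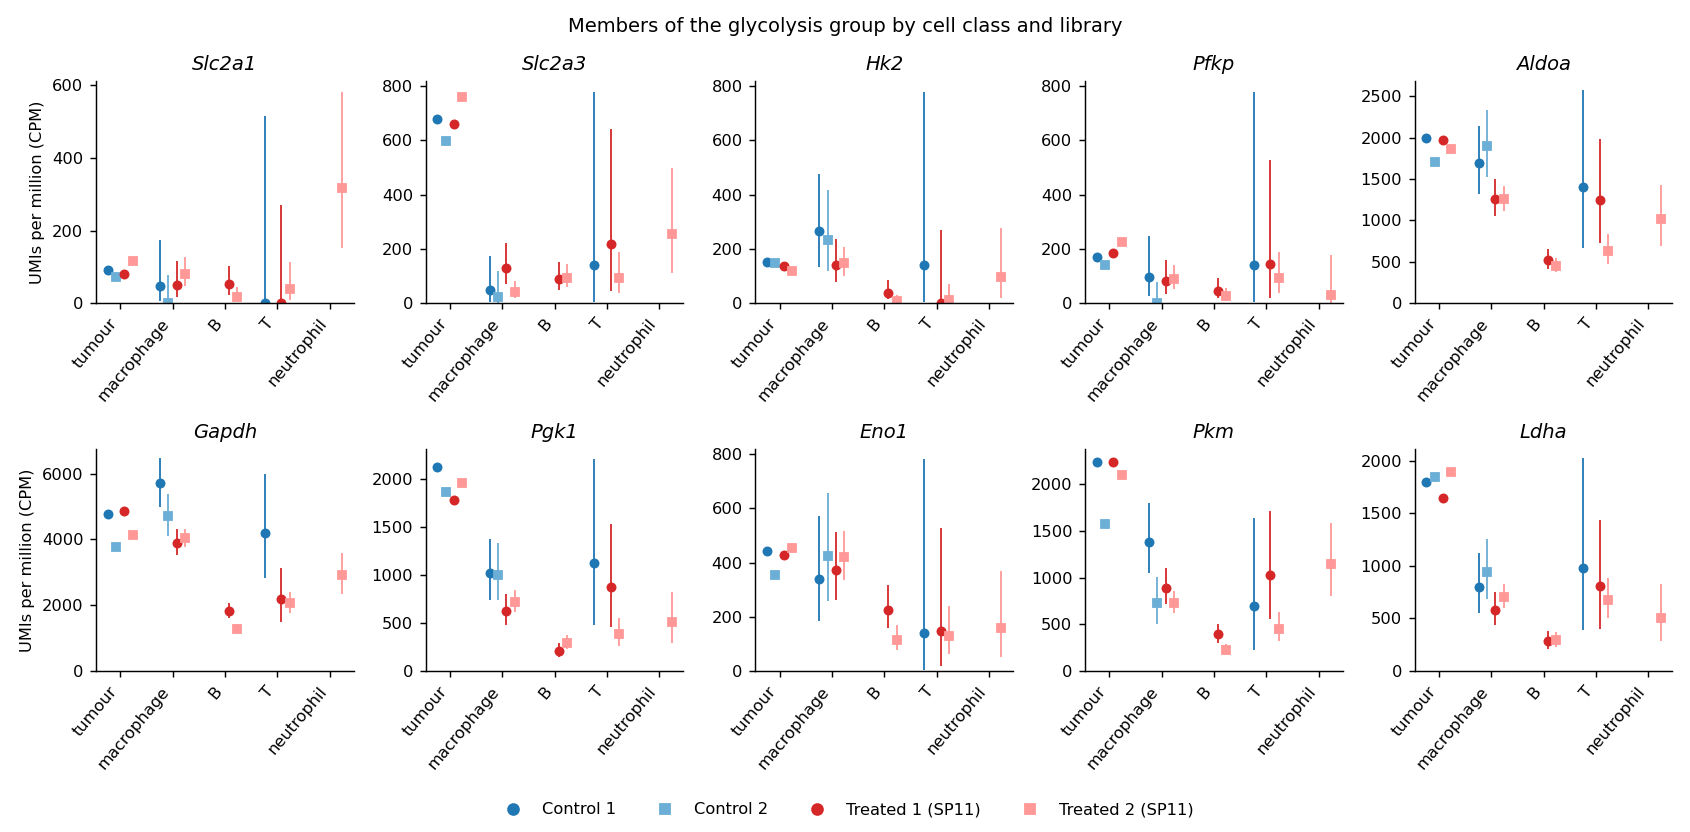
CPM (linear axes from 0) of each member in the 5 cell classes, with 1 point per library for sums of at least 10 cells and bars for the 95% exact Poisson interval, which covers counting error only. Tumor cells of the 4 libraries differ by more than their bars in some genes, such as Pkm at 2241 CPM in Control 1 and 1577 in Control 2. B cells lie below tumor cells in each panel.

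Glucose carriers came first in the pathway, and tumor cells held 2 of them. Slc2a1, the widespread basal glucose carrier (GLUT1), stood at 90.9 and 71.5 CPM in the control tumor cells and at 81.7 and 116 CPM in the SP11 tumor cells. Slc2a3, the high-affinity carrier (GLUT3) best known from neurons, stood at 679 and 597 CPM against 662 and 760 CPM. For both carriers the groups overlapped. Slc2a3 took 86.7% to 89.3% of the UMIs of Slc2a1, Slc2a3 and Slc2a6 in tumor cells, and Slc2a6 no more than 0.24%.

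Hk2, the inducible hexokinase known from muscle and many tumors, had 153 and 147 CPM in the control tumor cells. In the SP11 tumor cells it had 136 and 118 CPM, so that both treated values lay below both control values. Pfkp, the platelet form of phosphofructokinase, went the other way, with 170 and 142 CPM in controls and 184 and 226 CPM after SP11. Pfkp made up 64.3% to 68.4% of the phosphofructokinase UMIs, with Pfkl second.

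The later enzymes were the most abundantly counted. Aldoa, the aldolase that splits fructose bisphosphate, had 1998 and 1710 CPM in control and 1978 and 1860 CPM in SP11 tumor cells. Gapdh, which oxidises glyceraldehyde phosphate, had 4786 and 3768 against 4856 and 4125 CPM. Pgk1, the first ATP-yielding kinase of the pathway, had 2124 and 1866 against 1774 and 1960 CPM. In these 3 genes the groups overlapped and Control 1 was above Control 2.

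Eno1, the enolase of most tissues, had 443 and 355 CPM in controls and 426 and 453 CPM after SP11. Pkm, which makes pyruvate and a second ATP, had 2241 and 1577 against 2240 and 2102 CPM. Ldha had 1797 and 1840 against 1642 and 1893 CPM. Groups overlapped for all 3, and the low value of Pkm was that of Control 2. Aldoa and Ldha each took over 99% of the UMIs of their families, whereas Eno3 held 13.1% to 15.3% and the Eno1-like retrocopy Eno1b 2.54% to 3.98% of the enolase UMIs. Reads of Eno1 and Eno1b may have been exchanged in counting, so both are uncertain to that extent.

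Whether SP11 altered these genes in tumor cells was tested on UMIs summed per library, with edgeR's quasi-likelihood test, TMM scaling and Benjamini-Hochberg adjustment over 11588 genes. None of the 10 members passed, and 1 of them (Hk2) had an unadjusted p under 0.05. Among all genes tested, 1.81% were called higher and 0.501% lower at an adjusted p of 0.05 (210 and 58 genes), and 1691 genes had an unadjusted p under 0.05. DESeq2 also called 0 of the members. Scaled by library totals alone, 446 genes were higher and 60 lower, the median of all genes was 0.12 on the log2 scale, and 0 members were called. The median log2 fold change was -0.02 over the members and 0.00 over all genes. The intervals exclude a doubling or a halving in tumor cells: they ran from -0.64 at the lowest (Hk2) to 0.54 at the highest (Pfkp) on the log2 scale.

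With TMM scaling, the largest difference among the members was that of Hk2, at -0.36 on the log2 scale (SE 0.13, 95% interval -0.64 to -0.08, n = 2 libraries per group, unadjusted p = 0.0153, adjusted p = 0.205 in edgeR). Its mean level was 150 ± 4.34 CPM in controls and 127 ± 12.5 CPM after SP11 (SD, n = 2). In CPM, which scales by totals alone, the Pfkp means were further apart than those of Hk2. They were 156 ± 19.9 CPM in controls and 205 ± 29.4 CPM after SP11, so the order of the members depends on the scaling. With TMM scaling, Pfkp followed with 0.26 (SE 0.13, adjusted p = 0.389) and Pgk1 with -0.23 (SE 0.14, adjusted p = 0.497). The other 7 members lay between -0.17 (Ldha) and 0.14 (Slc2a1). By CPM, Hk2 was the only member whose groups did not overlap with SP11 lower, as did 8.12% of all genes tested, and Pfkp the only one with SP11 higher, as did 36.8%. These shares are on the scale of library totals, where the median log2 fold change of all genes was 0.12, and not on the TMM scale. Without Treated 1 the Hk2 difference passed the test (-0.52, adjusted p = 0.038 in edgeR), and over all settings tried its adjusted p ran from 0.0105 to 0.656. In Treated 1 the tumor cells held the most erythroid RNA, and the part of that RNA in the Hk2 value was not tested beyond leaving the hemoglobin genes out, which left 0 members called.

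Hk2 took a smaller part of the hexokinase UMIs in both SP11 libraries than in both controls. Hk2 made up 55.6% of the hexokinase UMIs (Hk1, Hk2 and Hk3) of tumor cells in Control 1 (95% exact Clopper-Pearson interval 53.7% to 57.5%) and 57.6% in Control 2. In Treated 1 it made up 45.5% and in Treated 2 41.8%. The groups did not overlap. The exact two-sided permutation test gave p = 0.333, the smallest that 2 libraries against 2 allow. It could not have passed and decides nothing. No other test of the share was run. Hk1, the hexokinase of most resting tissues, was the other side of that share, with 122 and 108 CPM in controls and 162 and 165 CPM after SP11. Hk1 was thus among the 36.8% of all genes tested whose groups did not overlap in CPM with SP11 higher. Its log2 fold change was 0.38 with an adjusted p of 0.160 (edgeR), so neither gene of the pair passed alone. Hk1 is named because its values had been seen.

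**Figure D2:**
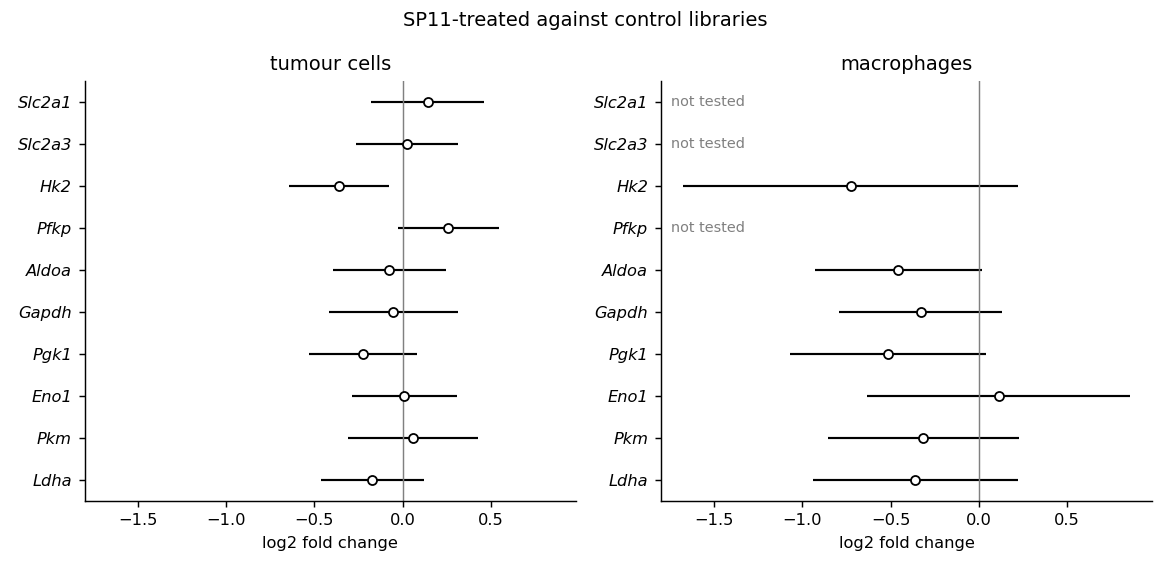
Log2 fold change of SP11 against control libraries for each member in tumor cells (left) and macrophages (right), with 95% intervals of the edgeR fit. Open points did not pass the test, which is all of them, and Hk2 in tumor cells is the only interval that leaves out 0.

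None of the lists around the pathway had a gene called in the tumor cell comparison. Of 18 other glycolysis enzymes 13 were tested, with a median log2 fold change of -0.05. Of 13 other hexose and lactate carriers 5 were tested (median 0.12), of 14 regulators at the phosphofructokinase and pyruvate steps 12 (median 0.01), and of 7 pentose phosphate genes 7 (median -0.05). Of 7 gluconeogenesis genes 3 were tested (median 0.30), and of 20 hypoxia factors and hypoxia-responsive genes outside glycolysis 19 (median -0.09). Hif1a itself had 50.9 and 63.6 CPM in control and 44.9 and 47.9 CPM in SP11 tumor cells, and Car9, a hypoxia-responsive carbonic anhydrase, had 13.5 and 9.07 against 12.9 and 11.5 CPM. Slc16a3, the lactate exporter, had 81.8 and 63.9 against 82.2 and 87.7 CPM.

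Among macrophages, 7 of the members had enough UMIs to be tested, and the 7 values of SP11 against control were on one side for all but Eno1. Aldoa had 1700 and 1895 CPM in the control macrophages and 1263 and 1256 CPM in the SP11 macrophages. Pgk1 had 1020 and 1001 against 622 and 722 CPM. Hk2 had 267 and 234 against 140 and 146 CPM, which rests on 11, 11, 14 and 31 UMIs. For these 3 genes, Gapdh and Ldha both SP11 libraries were below both controls, 5 of 7 members, while 29.1% of the 1129 genes tested were arranged that way and 25.8% the opposite way.

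None of the 7 passed the test in macrophages (edgeR), in which 6.29% of genes were called higher and 3.45% lower. None had an unadjusted p under 0.05, and DESeq2 called 0 as well. Their log2 fold changes were -0.46 (SE 0.24, adjusted p = 0.222) for Aldoa, -0.52 (SE 0.28, adjusted p = 0.248) for Pgk1 and -0.73 (SE 0.48, adjusted p = 0.359) for Hk2, with a median of -0.36 over the 7 members and 0.00 over all genes. Control 2 held 16 macrophages, so the comparison stands on sums of at least 10 cells, a limit lowered after the data were seen. Over all genes 284 had an unadjusted p under 0.05. When cells with Fn1 and Vcan UMIs were left out, Gapdh and Pkm changed sign (0.13 and 0.02). Erythroid check genes were higher in the SP11 macrophage sums too, at 8012 and 15796 CPM against 243 and 298 CPM, and their part in these values was not tested beyond leaving the hemoglobin genes out, with 0 members called.

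The SP11 difference in macrophages minus that in tumor cells was tested as an interaction, in which 0.0802% of 11223 genes were called higher and 0.267% lower. No member passed or had an unadjusted p under 0.05 (580 of all genes did), and each adjusted p was 1.0 (edgeR). The largest estimates were those of Slc2a1 at 1.66 (SE 1.01) and Slc2a3 at 1.32 (SE 0.79). They rest on 0 to 17 macrophage UMIs per library for Slc2a1 and 1 to 13 for Slc2a3. The estimates of the 7 members tested in macrophages lay between -0.21 (Aldoa) and 0.26 (Eno1). The median of all genes was 0.44 there, and 0.12 when sums were scaled by totals alone, and the Slc2a1 estimate rests on a Control 2 sum with 0 UMIs.

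Between cell classes the members differed more than between treatments in the median, but not each of them did. Against tumor cells the median log2 fold change of the members was -1.14 in macrophages, -2.61 in B cells, -1.99 in T cells and -1.65 in neutrophils. Under SP11 it was -0.02 in tumor cells and -0.36 in macrophages. Hk2 in macrophages differed less from tumor cells than between treatments. The class and treatment differences were not tested against each other. Macrophages, B cells, T cells and neutrophils were each compared with the tumor cells of the same libraries in 1 edgeR fit over 6298 genes, using sums of at least 20 cells. This left macrophages of Control 1, Treated 1 and Treated 2, B cells of both SP11 libraries, and T cells and neutrophils of Treated 2 alone. Any fold change of T cells and neutrophils therefore describes 1 library, with its error taken from the spread of the other sums.

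Macrophages had 9 of the 10 members lower than tumor cells, where 30.7% of all genes were called lower and 26.6% higher. Slc2a3 stood furthest below, at 48.6 and 21.3 CPM in the control and 130 and 42.5 CPM in the SP11 macrophages, against 597 to 760 CPM in tumor cells. Its log2 fold change was -3.60 (SE 0.26). Ldha (-1.66, SE 0.16), Pgk1 (-1.65, SE 0.16), Pkm (-1.50, SE 0.16) and Pfkp (-1.45, SE 0.28) were lower by similar amounts, with Aldoa at -0.78 (SE 0.15). Hk2 was the exception, at 0.08 (SE 0.25, adjusted p = 0.813), with macrophage CPM at 103% to 174% of the tumor value in the same library.

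Smaller differences in macrophages depended on the scaling. Slc2a1 (-0.83, adjusted p = 0.0273), Eno1 (-0.45, adjusted p = 0.0351) and Gapdh (-0.33, adjusted p = 0.0171) passed with TMM scaling, but not when sums were scaled by their totals alone, where they had adjusted p of 0.126, 0.403 and 0.772. That change of scaling moved the median of all genes from -0.16 to 0.07. Gapdh in macrophages was 119% and 125% of its tumor value in the controls and 80.3% and 97.7% in the SP11 libraries, on both sides of equality. The adjusted p over all settings tried ran from 0.00319 to 0.325 for Slc2a1, 0.00124 to 0.403 for Eno1 and 1.69e-05 to 0.772 for Gapdh. Without Treated 1 the 3 calls were also lost, with 6 members left lower, and without Treated 2 those of Slc2a1 and Eno1, with 7 left. Without Control 1, Gapdh was further down, at -0.84. Sums of at least 10 cells, which add the macrophages of Control 2, left 7 members lower (not Eno1 or Gapdh), as did doubled immune gates (not Slc2a1 or Eno1), and cells with at least 500 genes left 8 (not Eno1).

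**Figure D3:**
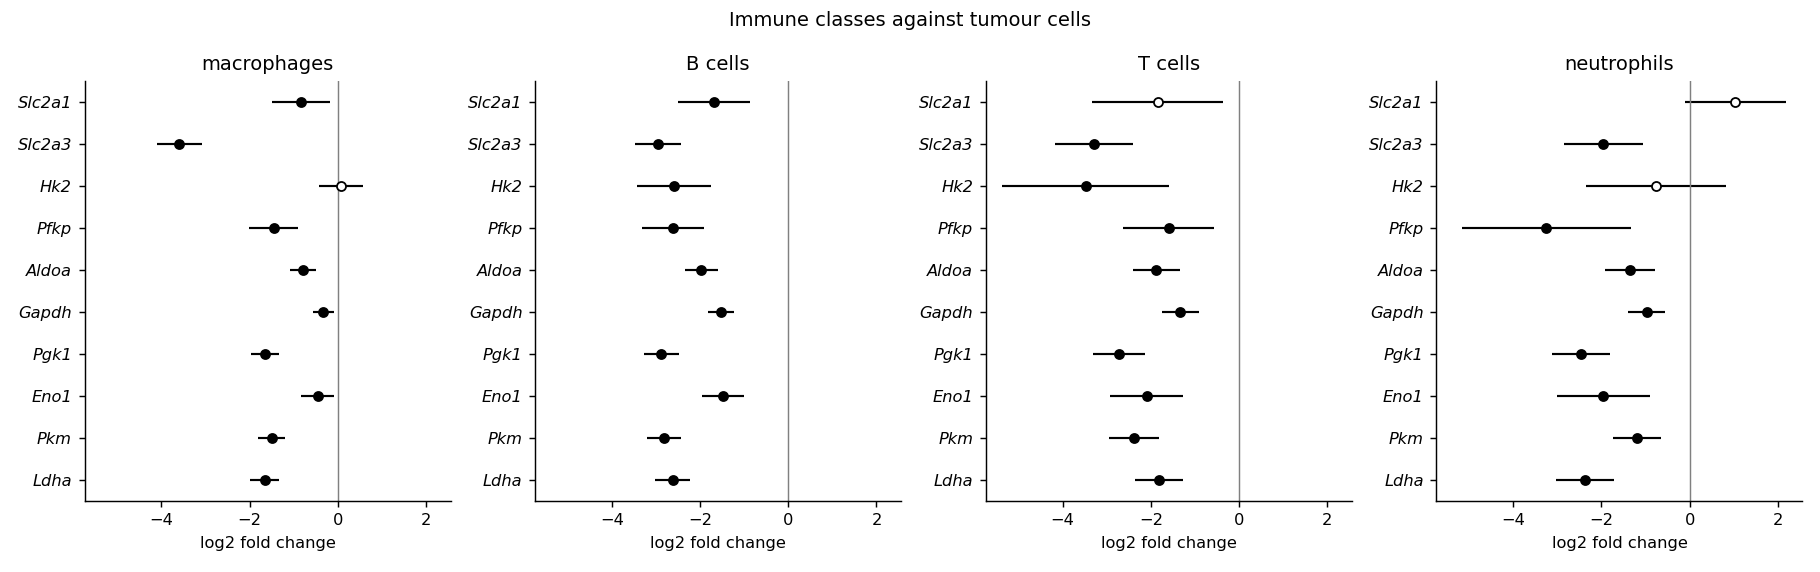
Log2 fold change of each immune class against tumor cells with 95% intervals of the edgeR fit. Filled points passed the test and open points did not. All but 2 points lie below 0, and these are Hk2 in macrophages at 0.08 and Slc2a1 in neutrophils at 1.04.

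B cells had all 10 members lower, where 26.7% of all genes were called lower and 23.8% higher. Hk2 had 38.9 and 8.57 CPM in the B cells of Treated 1 and Treated 2, which is 6 and 2 UMIs, and 136 and 118 CPM in the tumor cells beside them. Pgk1 had 207 and 296 CPM in B cells, a log2 fold change of -2.88 (SE 0.21). Slc2a3 (-2.96, SE 0.26), Pkm (-2.82, SE 0.20), Ldha (-2.63, SE 0.20), Pfkp (-2.62, SE 0.36) and Hk2 (-2.59, SE 0.43) were close to it. Gapdh (-1.53, SE 0.15) and Eno1 (-1.48, SE 0.24) were the least reduced. Without Treated 2 the calls of Slc2a1, Eno1 and Hk2 were lost and 7 members were left lower.

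T cells of Treated 2 had 9 members lower, where 16.1% of all genes were called lower and 13.1% higher, and Slc2a1 missed the threshold with an adjusted p of 0.0509 (edgeR). With sums of at least 10 cells, which add T cells of Control 1 and Treated 1, all 10 members were lower (Slc2a1 -2.33, adjusted p = 0.00743 in edgeR). Hk2 rested on 1 UMI in Treated 2. Pgk1 was at 390 CPM (log2 fold change -2.71, SE 0.30) and Gapdh at 2065 CPM (-1.33, SE 0.21). In the neutrophil gate the 6 macrophage check genes (Lyz2, Cd68, Ctss, Cybb, Tyrobp and Clec4n) stood above the 6 neutrophil check genes. They had 9957 against 6279 CPM in Treated 2, with the same order in the other libraries. How far both cell types share these genes was not tested. Their order therefore does not decide the name neutrophils, which rests on the gate. Neutrophils of Treated 2 had 8 members lower, where 14.9% of all genes were called lower and 12.1% higher, but the median over all genes was itself -1.47 in that sum of 38 cells. Scaled by totals, the T cell sums had 975 genes higher and 624 lower in place of 827 and 1016, and the neutrophil sums 849 and 556 in place of 760 and 938, with 8 and 6 members left lower. Slc2a1 was the member that stood above tumor cells in neutrophils, at 317 CPM from 10 UMIs against 116 CPM, a difference of 1.04 on the log2 scale (SE 0.58, adjusted p = 0.171 in edgeR) that did not pass.

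The immune sums also held UMIs of the 11 epithelial check genes, and whether these came from free RNA, doublets or tumor cells below the keratin gate was not tested. In macrophages these genes stood at 14.9% and 14.6% of their tumor level in the controls and at 16% and 5.14% in the SP11 libraries. Slc2a3 stood at 7.15% and 3.57%, and at 19.7% and 5.59%, of its own. Its level in macrophages was thus close to, or under, that of genes these cells should lack. In B cells the check genes stood at 11.4% and 7.1%, and Slc2a3 at 13.7% and 12.4%, Pgk1 at 11.7% and 15.1%, and Pkm at 17.6% and 10.6%. Gapdh was well above it in each class of the plot, at 31.3% or more, as was Aldoa at 24.4% or more.

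**Figure D4:**
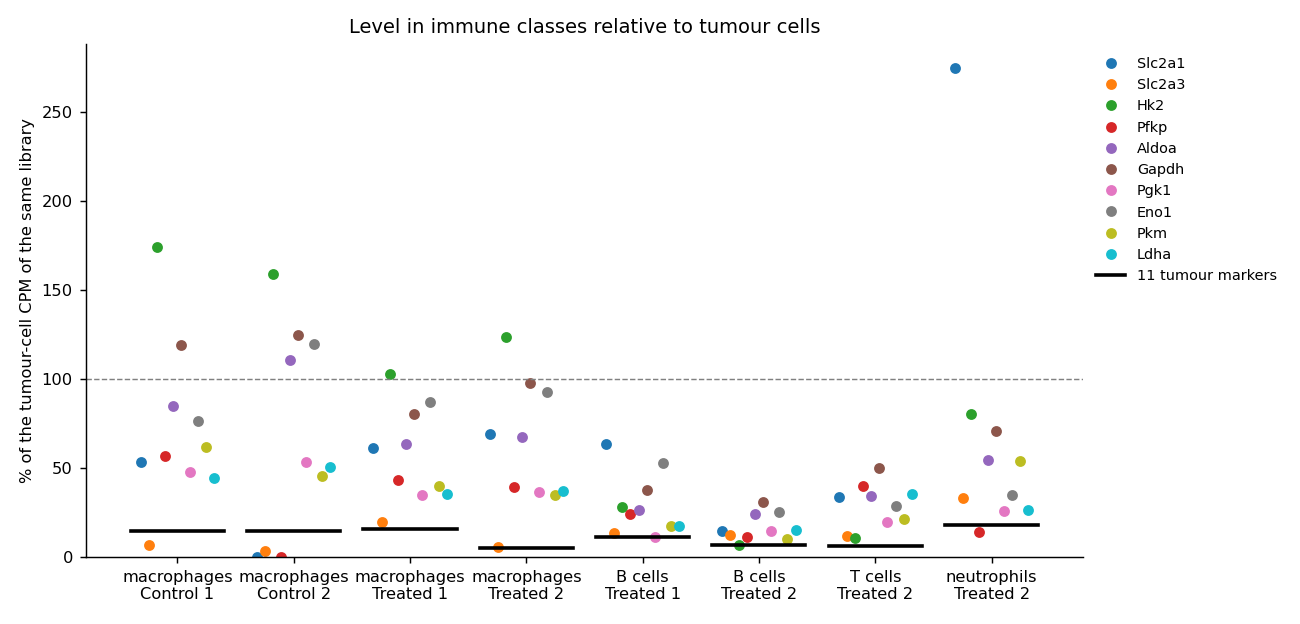
CPM of each member in an immune class as a percent of its CPM in tumor cells of the same library (points), with the same for 11 epithelial check genes (black bars) and equality at 100% (dashed line). Slc2a3 sits near the bars in macrophages, while Hk2 lies above 100% in the macrophages of all 4 libraries.

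Other genes of the pathway were counted in the same comparisons. Macrophages against tumor cells had 1 higher and 4 lower of 7 other enzymes tested, 1 and 2 of 4 carriers, 1 and 4 of 7 regulators, 0 and 2 of 5 pentose phosphate genes, and 4 and 6 of 15 hypoxia-related genes. Of all genes, 26.6% were called higher and 30.7% lower. Each of these small lists had a larger share called lower than that, and no test compared a list with all genes. Hk3, the hexokinase of myeloid cells, had 24.3, 21.3, 40.1 and 33.0 CPM in macrophages of the 4 libraries, and at most 0.90 CPM in tumor cells. Its macrophage values in Control 1 and Control 2 were 1 UMI each. Slc2a6, a lysosomal hexose carrier, had 0, 21.3, 50.1 and 70.8 CPM in macrophages and at most 1.79 CPM in tumor cells. Its macrophage values in Control 1 and Control 2 were 0 and 1 UMI. Pfkfb3, which makes the activator of phosphofructokinase, was higher by 2.71 (SE 0.59) on the log2 scale, and Hif1a by 1.80 (SE 0.28). Among the lower genes, Hk1 differed by -1.86 (SE 0.34) and Tpi1, triosephosphate isomerase, by -1.42 (SE 0.16). These genes were picked with their values in view.

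B cells had 0 of 7 other enzymes higher and 6 lower, beside 23.8% and 26.7% of all genes. Of 7 regulators 2 were higher and 5 lower, with a median of -1.63 on the log2 scale, and the higher ones were Pfkfb3 (2.91, SE 0.59) and Pfkfb4 (2.60, SE 0.82), the latter from 3 and 8 UMIs. Neutrophils of Treated 2 had Slc16a3 at 698 CPM and Taldo1, a transaldolase of the pentose phosphate pathway, at 1205 CPM, against 87.7 and 297 CPM in tumor cells beside them. Both passed the test, with log2 fold changes of 2.49 (SE 0.47) and 1.46 (SE 0.33).

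Within the tumor, members were compared between the upper and lower tertile of the cells of each library by UMIs of 30 mitotic genes, with each cell thinned to 5000 UMIs. The tertiles held 170 to 383 cells per library. Hk2 was lower in the upper, more mitotic tertile, at 126 CPM against 192 in Control 1, 136 against 156 in Control 2, 115 against 153 in Treated 1 and 95.3 against 128 in Treated 2. The direction was the same in all 4 libraries, and the difference of -0.50 on the log2 scale (SE 0.09, adjusted p = 1.72e-07, edgeR with the library as a block) passed.

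Gapdh also passed, by -0.14 (SE 0.03, adjusted p = 1.16e-04), with a lower CPM in the upper tertile of 3 libraries and 4151 against 4115 CPM in Treated 2. Aldoa passed by -0.11 (SE 0.04, adjusted p = 0.0238), a call lost with 4 other settings of the processing and without Control 1 or Treated 1. In all, 3 members were called lower and 0 higher, with 9.04% and 8.04% of 7287 genes called in those directions. The other 7 members lay between -0.18 (Slc2a1) and 0.07 (Pfkp). Scaled by totals, 804 genes were higher and 357 lower in place of 586 and 659, with Hk2 and Gapdh left.

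**Figure D5:**
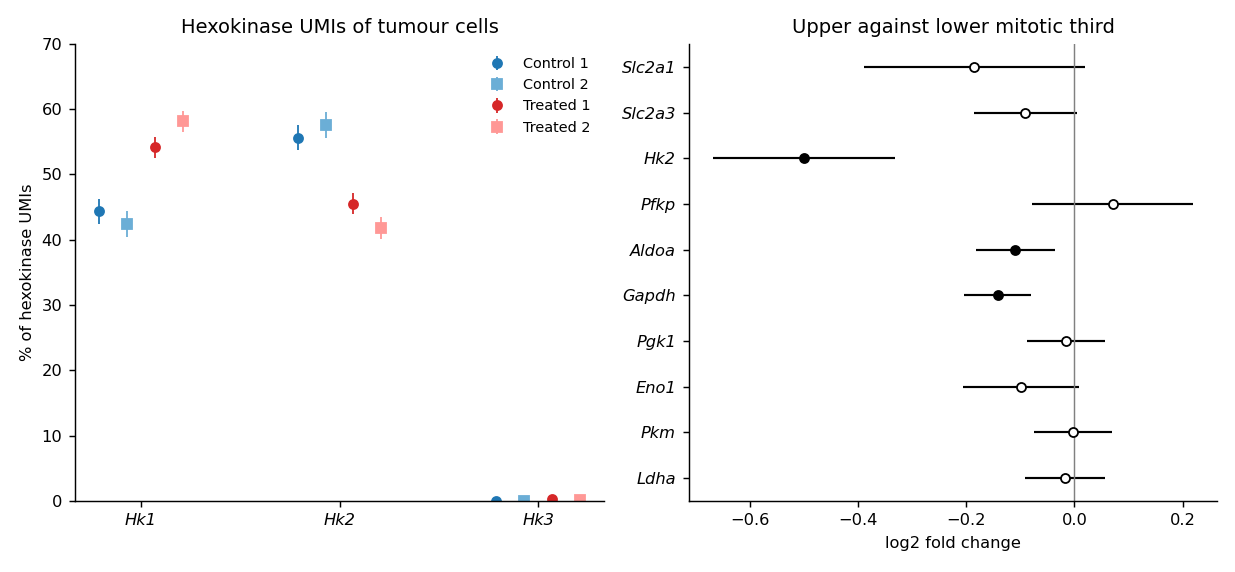
Left, percent of hexokinase UMIs of tumor cells that each hexokinase took, per library with 95% exact binomial intervals for counting error. Hk2 lies at 55.6% and 57.6% in controls and at 45.5% and 41.8% after SP11. Right, log2 fold change of the upper against the lower mitotic tertile with 95% intervals, filled where the test was passed, with Hk2 furthest from 0.

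The spread from cell to cell was compared with counting noise. At 5000 UMIs per tumor cell the mean was 20.1 to 24.3 UMIs for Gapdh, 2.80 to 3.73 for Slc2a3, 0.54 to 0.78 for Hk2 and 0.33 to 0.55 for Slc2a1. A Poisson count would give a variance equal to the mean. The ratio of the variance to the mean over cells was 1.83 to 2.30 for Gapdh, 1.47 to 1.65 for Slc2a3 and 1.41 to 1.58 for Pgk1, so these varied beyond counting noise. It was 1.01 to 1.06 for Slc2a1 and 1.07 to 1.18 for Hk2, whose low means leave variation between cells hard to see. Correlations of members across the thinned cells of a library were weak. The highest median over the 4 libraries was 0.20, for Aldoa with Gapdh, and the lowest was -0.13, for Slc2a3 with Gapdh, as a description with no test.

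Likeness to other genes was taken as Pearson's r of log2(CPM + 1) over the 11 sums of class and library with at least 20 cells, which share libraries and differ in depth. The sums hold tumor and immune classes, so r takes in the difference between them, and the nearest of 7943 genes are named. Across thinned tumor cells the median r of Pgk1 with Ldha was 0.09. Ldha was most like Pgk1 (r = 0.97), and Gapdh was most like Gpi1, glucose phosphate isomerase (r = 0.97), with Aldoa next (r = 0.96). The second gene by likeness to Hk2 was Pgam1, phosphoglycerate mutase (r = 0.97), after Cebpg (r = 0.98). The genes nearest to Slc2a3 were Nop58, Hspa4 and Slc38a2 (r = 0.97 each), none of them of the pathway lists, and the nearest to Slc2a1 were Cd9 (r = 0.94), Mettl9 (r = 0.94) and Pgd (r = 0.91), the last a pentose phosphate enzyme. Among the members themselves, Slc2a1 with Pfkp had the lowest r, at 0.21.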

How the data were processed

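Single-cell RNA-seq (10x, 3′) was analysed from 2 control and 2 SP11 libraries. The files deposited by the authors hold UMI counts for each gene in each barcode, made with Cell Ranger 7.1.0 and not normalized. The submitters' notes name mm10 and the study's methods hg38, and 32235 of the 32285 gene IDs matched the mouse GENCODE M21 annotation. Barcodes with at least 200 genes and at most 10% mitochondrial UMIs were kept. Tumor cells had at least 5 UMIs of Krt8 and Krt18. Other barcodes with less than 20% hemoglobin UMIs were gated at 3 UMIs of macrophage genes, 2 of B or T cell genes or 20 of neutrophil genes, and barcodes of several immune gates were left out. Doublets called by Scrublet were kept (5.13% and 8.13% in the controls, 0.928% and 1.47% in the SP11 libraries).

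UMIs were summed per class and library and compared by the quasi-likelihood method of edgeR 4.0.16 under R 4.3.3, after filterByExpr and TMM scaling. P-values were adjusted over all genes tested (Benjamini-Hochberg, threshold 0.05). The step was also tested on simulated data. DESeq2 1.42.0 was an alternative. Sums needed 20 cells, or 10 for the macrophage comparison, set after seeing the data. Alternatives changed filters, gates, scaling, depth, doublets and libraries. Intervals on counts cover counting error only. Tumor cells had medians of 8892 to 19843 UMIs. The members and lists were chosen with earlier results of these data known. All 10 members are named, and of each list the genes called in an SP11 comparison, of which there were 0. Other list genes were named after their values were seen. Of 6 near-identical retrogenes listed, 5 were matched and had 0 to 7 UMIs per library.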

Additional observations from a re-analysis of the deposited data

How the results depend on the processing

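Of 874 values recomputed for the members, 810 kept their direction and their side of the threshold, 26 called values lost it, 6 gained it and 32 changed sign, none of the last a called value. In the tumor cell comparison of SP11 with control, 1 member (Hk2) was called with the replicate number as a block (replicate block, -0.37, adjusted p = 0.0105 in edgeR) and 0 to 1 members when each library was left out (1 without Treated 1), and the 268 genes called became 506 with library totals, 162 without cells that also passed an immune gate, 95 with every cell thinned, 149 with DESeq2, 1038 with the block, and 78 (without Control 2) to 425 (without Treated 2). Same-numbered libraries deviated together only weakly (r = 0.13 in tumor cells and 0.08 in macrophages), so that with 2 pairs the numbers are not taken as pairs. The block changed no call of a member in macrophages. With library totals Gapdh and Aldoa turned to 0.071 and 0.050. With libraries left out in turn, Slc2a1 ran from -0.067 to 0.35, Eno1 from -0.16 to 0.20, Slc2a3 from -0.084 to 0.14, Gapdh from -0.23 to 0.15, Aldoa from -0.20 to 0.062 and Pkm from -0.19 to 0.36.

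In macrophages under SP11, 110 genes called became 17 without the filter, 8 without cells with Fn1 and Vcan UMIs (Gapdh 0.13, Pkm 0.023), 38 with DESeq2 and 35 (without Treated 2), 51 (without Treated 1) and 53 (without Control 2) to 127 (without Control 1), where Eno1 ran from -0.14 to 0.33 and Pkm from -0.77 to 0.099. For the interaction, 39 genes became 23 without cells of both gates, 12 without Fn1 and Vcan cells and 0 (without Treated 1), 16 (without Treated 2) to 35 (edgeR). Eno1 turned to -0.11 with library totals and ran from -0.16 to 0.66, and Aldoa from -0.51 to 0.047. Slc2a1 depended on a Control 2 sum with 0 UMIs.

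Against tumor cells, Hk2 in macrophages turned to -0.18 without the filter, -0.0043 with at least 500 genes and -0.10 with doubled gates, and ran from -0.45 to 0.18. Genes called ran from 1541 (without Treated 2) to 3762 in macrophages, in place of 3611, and from 790 (without Treated 2) and 1947 (without Treated 1) to 3490 in B cells, in place of 3176. For the mitotic tertiles, library totals turned Ldha, Pkm and Pgk1 to 0.055, 0.069 and 0.057, and Pfkp turned to -0.089 without cells that passed an immune gate. Genes called ran from 777 (without Treated 1) to 1125, in place of 1245, Pkm from -0.019 to 0.017 and Pgk1 from -0.037 to 0.0054. Where the cause is not the smaller number of cells or libraries, the cause was not tested. Doubled immune gates for the SP11 comparison of macrophages and its interaction, neutrophils with at least 500 genes, and T cells or neutrophils without Treated 2 gave no value, because too few cells were left. Few UMIs limit Slc2a1, Pfkp and Hk2 in the immune classes.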
